A study of Mus musculus with 12 samples.

Results

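Hearts of mouse embryos in which both Asb2 alleles were floxed were compared with hearts carrying 1 floxed Asb2 allele, at embryonic day 9.5. The mouse heart is then a looping tube with emerging chambers. The Asb2fl/fl group and the Asb2fl/+ group had 3 RNA libraries each, which are 6 of the 12 libraries of the study. All 4 groups of the study, the Asb2fl/+ group included, carried the Cre driver labelled NkxCre, and the strain was labelled C57/BL 6. Notes inside the deposited table call the driver Nkx2-5+Cre. Nkx2-5 is expressed in cardiac progenitors and heart muscle, so a Cre under its control recombines in those lineages and not in every cell of a dissected heart. The other 6 libraries were labelled Asb2fl/fl.Flnafl/fl and Asb2fl/+.Flnafl/fl, 3 each, and served here as a second Asb2 contrast that shares no library with the first. Total RNA was extracted from whole hearts. The labels do not say whether a library holds 1 heart or a pool, so the spread behind the p-values is that of these libraries and can be technical in part. The table for the comparison lists 15211 genes, of which 14034 averaged 1 CPM or more in the 6 libraries and were tested.

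ASB2 is the substrate-binding subunit of an E3 ubiquitin ligase built on cullin 5, the scaffold protein, and the elongins. It is best known for marking filamins, the large crosslinkers of actin, for degradation in differentiating blood and muscle cells. In the early heart it is found in heart muscle, and mouse embryos without it die in mid-gestation with heart defects. At this stage the heart tube consists of muscle, the endocardium that lines it and extracellular matrix between them, and primitive red blood cells pass through it.

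Levels are given in CPM, reads relative to library size as the authors scaled it, in the order of libraries 1, 2 and 3. In bulk hearts fewer cells of a type and less RNA per cell cannot be told apart. The read totals in listed genes were 25951549 to 42468063 per library, and in the 6 libraries compared 1 read was worth 0.0274 to 0.038 CPM. Fold changes are differences of log2(CPM + 0.5), Asb2fl/fl minus Asb2fl/+, which understate the change of low genes. A gene is said to rise or fall where the adjusted p of limma's moderated test, with Benjamini-Hochberg adjustment over all 14034 genes, was below 0.05. Of these genes 1505 rose (10.7%) and 1528 fell (10.9%), 3033 in all (21.6%). At least 2-fold rises numbered 590 (4.2%) and at least 2-fold falls 340 (2.42%), and the median log2 fold change over all genes was -0.01. The count of 3033 was 2004 without Asb2fl/fl library 2, 1771 without Asb2fl/+ library 1 and 1581 without Asb2fl/+ library 2. By the authors' deposited table an FDR below 0.05 was given to 4053 genes, 2007 of them higher and 2046 lower. Sex-linked transcripts differed within both groups, with Xist at 571, 0.38 and 377 CPM in the Asb2fl/fl libraries, against 0.823, 302 and 106 CPM in the Asb2fl/+ libraries. The Y-linked Ddx3y stood at 19.3, 84.4 and 32.2 CPM in the Asb2fl/fl libraries, against 58.6, 0 and 51.4 CPM in the Asb2fl/+ libraries, so that Asb2fl/+ library 2 held none of it and 3 libraries held both transcripts at more than 15 CPM. Cardiomyocyte markers were present at 21383 to 37799 CPM in Asb2fl/fl libraries and 24107 to 37082 CPM in Asb2fl/+ libraries in sum over 10 genes. None of the 10 passed with limma or edgeR, 2 did with DESeq2, and 2 had an unadjusted p below 0.05 in limma.

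The targeted gene and the filamins were examined first. On GRCm38, Asb2 (ENSMUSG00000021200, chromosome 12, 103321142 to 103356001, minus strand) had 77.8, 163 and 115 CPM in the Asb2fl/fl libraries, against 289, 183 and 218 CPM in the Asb2fl/+ libraries. The lowest Asb2fl/+ library was above the highest Asb2fl/fl library, by little (groups without overlap were found for 41.4% of all tested genes), and transcript remained in all Asb2fl/fl libraries. The difference passed (log2 fold change -0.99, SE 0.26, adjusted p = 0.0248) and lost the threshold without Asb2fl/fl library 3 (adjusted p = 0.066), Asb2fl/+ library 1 (0.0601) or Asb2fl/+ library 3 (0.0571). The counts are over whole genes and all cells of the heart, so they do not show whether the floxed exons were lost in part of the cells. Among the ligase partners, the elongin gene Tceb1 fell (-0.61, SE 0.18, adjusted p = 0.0377), with an adjusted p of at least 0.05 without Asb2fl/fl library 1 (adjusted p = 0.0721), Asb2fl/fl library 2 (0.107), Asb2fl/+ library 1 (0.105) or Asb2fl/+ library 2 (0.138). Cul5, the scaffold, was at -0.25 without passing.

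Of the filamin genes, Flna and Flnc rose. Flna stood at 1032, 869 and 725 CPM in the Asb2fl/fl libraries, against 490.3, 554 and 721 CPM in the Asb2fl/+ libraries, where Asb2fl/fl library 3 and Asb2fl/+ library 3 nearly met (log2 fold change 0.58, adjusted p = 0.0464). Its adjusted p was 0.124 without Asb2fl/fl library 1 and 0.161 without Asb2fl/+ library 1, and it also missed the threshold without Asb2fl/fl library 2 or Asb2fl/+ library 2. Flnc, the filamin of striated muscle, stood at 758, 1544 and 954 CPM in the Asb2fl/fl libraries, against 723, 429.5 and 621 CPM in the Asb2fl/+ libraries, highest in Asb2fl/fl library 2 (log2 fold change 0.84, SE 0.27, adjusted p = 0.0467). The threshold was missed without Asb2fl/fl library 2 (adjusted p = 0.116), Asb2fl/fl library 3 (0.087), Asb2fl/+ library 2 (0.145) or Asb2fl/+ library 3 (0.0863). Per kilobase of gene length the mean level of Flna was 90.9 ± 15.9 in Asb2fl/fl and 61.1 ± 12.4 in Asb2fl/+ CPM and that of Flnc 108 ± 40.7 in Asb2fl/fl and 58.8 ± 14.8 in Asb2fl/+ CPM (SD, n = 3 each). ASB2 acts on the filamin proteins, which were not measured.

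**Figure D1:**
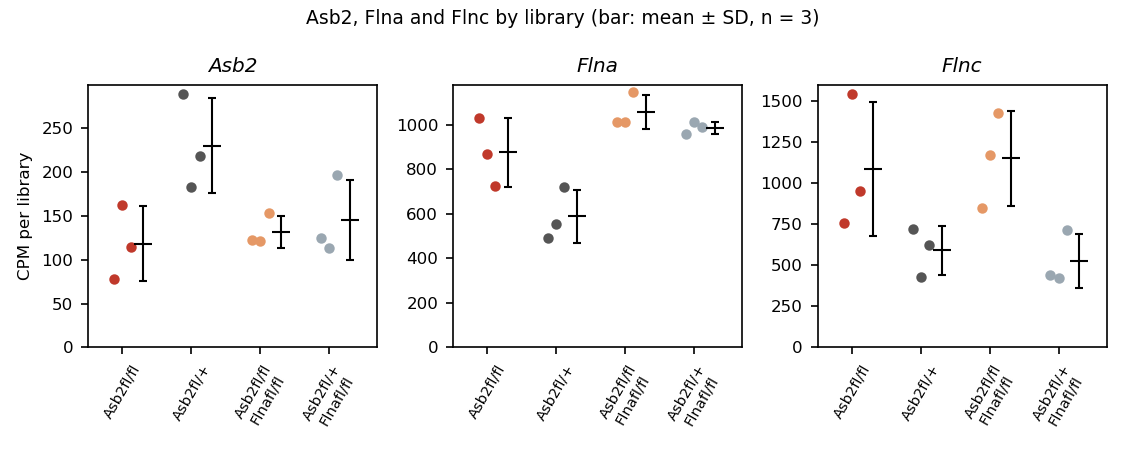
Level of Asb2, Flna and Flnc in CPM in each of the 12 libraries, by genotype label, with mean ± SD of 3 libraries. Asb2 is lower in all 3 Asb2fl/fl than in all 3 Asb2fl/+ libraries and does not separate the 2 groups with the Flna label, and Flnc is highest of the 6 libraries without the Flna label in Asb2fl/fl library 2.

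Genes that respond to low oxygen rose, and some were among the largest changes of the comparison. In oxygen, prolyl hydroxylases encoded by Egln genes mark the hypoxia-inducible factor (HIF) alpha subunits for destruction through the von Hippel-Lindau protein. Without oxygen the factor persists and induces genes of glycolysis, blood vessel growth and mitochondrial turnover. HIF targets include 2 of the hydroxylase genes themselves. The windows before the start sites of some of these genes are shown first, because 1 form of the core of the HIF recognition element, ACGTG, can be read in 3 of them. The other form is GCGTG. They run over the 250 bases before the RefSeq start site on GRCm38.p6, 5′ to 3′ on the gene's strand, with a match to ACGTG on either strand in capitals. The genes are Ddit4 (chr10:59951771-59952020, minus strand), P4ha2 (chr11:54100674-54100923, plus strand), Pfkfb3 (chr2:11553930-11554179, minus strand, one of 2 windows listed for this gene) and Stc2 (chr11:31370062-31370311, minus strand).
Ddit4: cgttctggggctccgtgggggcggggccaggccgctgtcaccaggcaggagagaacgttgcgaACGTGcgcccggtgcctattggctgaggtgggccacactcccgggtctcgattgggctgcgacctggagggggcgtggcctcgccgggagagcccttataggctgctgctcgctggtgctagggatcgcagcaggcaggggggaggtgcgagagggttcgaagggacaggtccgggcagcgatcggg
P4ha2: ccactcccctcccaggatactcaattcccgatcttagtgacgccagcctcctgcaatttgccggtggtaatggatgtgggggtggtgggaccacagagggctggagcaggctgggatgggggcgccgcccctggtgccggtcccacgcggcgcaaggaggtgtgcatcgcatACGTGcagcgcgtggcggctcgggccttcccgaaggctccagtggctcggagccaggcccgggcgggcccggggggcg
Pfkfb3: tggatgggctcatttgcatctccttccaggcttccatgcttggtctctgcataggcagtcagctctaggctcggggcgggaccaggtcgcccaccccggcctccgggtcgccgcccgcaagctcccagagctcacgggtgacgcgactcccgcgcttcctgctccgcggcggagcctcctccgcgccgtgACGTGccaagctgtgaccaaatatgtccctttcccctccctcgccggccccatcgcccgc
Stc2: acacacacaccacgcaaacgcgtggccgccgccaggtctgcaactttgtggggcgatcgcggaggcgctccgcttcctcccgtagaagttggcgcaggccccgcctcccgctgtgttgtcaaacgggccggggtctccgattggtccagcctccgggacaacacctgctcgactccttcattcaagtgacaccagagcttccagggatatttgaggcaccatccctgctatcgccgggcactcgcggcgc

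ACGTG began at -187 in Ddit4, -78 in P4ha2 and -60 in Pfkfb3, counted from the start site, and these letters were not in the Stc2 window, which held GCGTG. Of 25 hypoxia response genes, 19 had a window and 10 of the 19 (52.63%) held ACGTG on either strand. Glycolysis genes held it in 8 of 21 (38.1%), against 22.06% of the 9733 tested genes with a window. Among all genes that rose, 23.11% of 1095 held it, and among all that fell 20.87% of 1107 did. GCGTG was held by 13 of 19 hypoxia response genes (68.42%) and 10 of 21 glycolysis genes (47.62%), against 46.35% of all tested genes with a window, so the glycolysis share was close to that of all genes. Of lists described further on, stress response regulators held GCGTG in 11 of 14 windows (78.57%) and ACGTG in 1 (7.143%). The serine and one-carbon list held GCGTG in 9 of 14 (64.29%) and ACGTG in 5 (35.71%). GCGTG shares were lower for amino acid transporters (33.33%), primitive erythroid genes (28.57%) and complex I genes (28.12%). High shares of these letters were thus not particular to the hypoxia list. A match is a run of letters and not a measured binding site.

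Of the 25 genes in the hypoxia response list, 23 rose and 0 fell, against a background of 10.7% of all genes that rose, and the median log2 fold change was 2.05. Ndufa4l2, a mitochondrial protein induced by HIF, stood at 53.2, 80.7 and 66.7 CPM in the Asb2fl/fl libraries, against 3.09, 2.63 and 1.78 CPM in the Asb2fl/+ libraries. Ddit4, an inhibitor of the growth kinase complex mTORC1, stood at 355, 450.4 and 320.4 CPM in the Asb2fl/fl libraries, against 24.9, 33.6 and 33.2 CPM in the Asb2fl/+ libraries. For both genes the lowest Asb2fl/fl library was many times above the highest Asb2fl/+ library (4.49, SE 0.23, adjusted p = 2.67e-06 for Ndufa4l2 on the log2 scale, and 3.59, SE 0.17, adjusted p = 2.42e-06 for Ddit4). Stc2, which encodes the secreted glycoprotein stanniocalcin 2, had 75.4, 116 and 67.4 CPM in the Asb2fl/fl libraries, against 6.45, 6.78 and 6.61 CPM in the Asb2fl/+ libraries (log2 fold change 3.57, SE 0.20, adjusted p = 6.61e-06). This was among the largest rises of the list.

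Vegfa, the main growth factor of blood vessels, had 181, 444 and 211 CPM in the Asb2fl/fl libraries, against 69.05, 54.6 and 58.6 CPM in the Asb2fl/+ libraries (log2 fold change 2.08, SE 0.30, adjusted p = 0.0027). The collagen prolyl hydroxylase genes P4ha1 and P4ha2 rose by 1.63 and 2.57, and the lysyl hydroxylase gene Plod2 by 1.61. Bnip3 and Bnip3l, receptors for the removal of mitochondria by autophagy, rose by 2.06 and 1.14. Car9, a membrane carbonic anhydrase, had 3.0, 10.7 and 6.23 CPM in Asb2fl/fl, against 1.12, 0.329 and 0.479 CPM in Asb2fl/+, so that a gene near the lower limit in Asb2fl/+ libraries was present in all Asb2fl/fl libraries. The members that did not pass were Cited2 (log2 fold change 0.52) and Pfkfb4 (-0.74). Summed over its members, the list came to 3451 to 5075 CPM in Asb2fl/fl libraries and 1174 to 1335 CPM in Asb2fl/+ libraries. As a median log2 deviation from the gene means its level was 0.67, 1.28 and 0.76 in Asb2fl/fl libraries 1, 2 and 3, against -0.90, -0.96 and -0.92 in Asb2fl/+ libraries. Asb2fl/fl library 2 was thus the highest, and the Asb2fl/+ libraries were close to each other. In the same libraries primitive erythroid markers, described further on, were lower, and their part in these values was not tested.

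The oxygen sensors moved in different directions. Egln3 had 74.03, 144 and 81.1 CPM in the Asb2fl/fl libraries, against 9.87, 8.92 and 11.4 CPM in the Asb2fl/+ libraries (log2 fold change 3.19, SE 0.23, adjusted p = 4.79e-05), and Egln1 had 374, 592 and 438 CPM in Asb2fl/fl, against 154, 142 and 143 CPM in Asb2fl/+ (1.65, SE 0.17, adjusted p = 0.000241). The groups of both genes stood far apart. Egln2, which low oxygen does not induce, fell with 78.5, 73.4 and 97.7 CPM in Asb2fl/fl, against 142, 126 and 124 CPM in Asb2fl/+ (-0.66, SE 0.14, adjusted p = 0.00996). Hif1a, the alpha subunit itself, fell as well, with 190.3, 192 and 231 CPM in the Asb2fl/fl libraries, against 339.7, 346 and 367 CPM in the Asb2fl/+ libraries (log2 fold change -0.78, SE 0.13, adjusted p = 0.00346). Per kilobase, Egln2 transcript was 26.7 ± 4.11 in Asb2fl/fl and 41.97 ± 3.01 in Asb2fl/+ CPM and Egln1 133 ± 31.99 in Asb2fl/fl and 41.8 ± 1.88 in Asb2fl/+ CPM (SD, n = 3 each), so the 2 had about equal levels in Asb2fl/+ hearts and Egln1 was the higher one in Asb2fl/fl hearts. Vhl, Hif1an, Epas1, Hif3a and Arnt did not pass, at log2 fold changes of -0.29 to 0.54. In all 2 of the 9 oxygen sensing genes rose and 2 fell, against 10.7% and 10.9% of all genes.

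Glucose uptake and glycolysis genes rose with them, 16 of 22, while 1 fell (median log2 fold change 0.82). The count of 16 was lowest, at 11, without Asb2fl/+ library 2. Slc2a3, a high-affinity glucose transporter, had 1181, 1526 and 1086 CPM in the Asb2fl/fl libraries, against 307, 193 and 201 CPM in the Asb2fl/+ libraries (log2 fold change 2.45, SE 0.20, adjusted p = 9.08e-05). Slc2a1, the widely expressed transporter, had 1757, 2735 and 2228 CPM in Asb2fl/fl, against 1541, 1012 and 1050.2 CPM in Asb2fl/+, and its groups did not overlap either (0.90, SE 0.21, adjusted p = 0.0143). The call of Slc2a1 was lost without Asb2fl/+ library 2 (adjusted p = 0.058). Hk2, the inducible hexokinase, rose by 1.62, whereas Hk1 was at 0.16 without passing. Eno2, the enolase best known from neurons, had 76.9, 179 and 114 CPM in the Asb2fl/fl libraries, against 8.06, 5.02 and 5.58 CPM in the Asb2fl/+ libraries (log2 fold change 4.14, SE 0.28, adjusted p = 4.79e-05). Its level per kilobase, 21.4 ± 8.94 in Asb2fl/fl and 1.08 ± 0.281 in Asb2fl/+ CPM, remained below that of Eno1, at 181 ± 18.9 in Asb2fl/fl and 109 ± 24.02 in Asb2fl/+ CPM. The muscle enolase Eno3 did not pass (-0.13), and Aldoc rose by 2.44 beside a rise of 0.81 for Aldoa, which was lost without Asb2fl/+ library 2 (adjusted p = 0.0568). Ldhb, the lactate dehydrogenase subunit that favours lactate use, was the member that fell (-0.87, SE 0.15, adjusted p = 0.00417), and Ldha was at 0.57 without passing (adjusted p = 0.0517). Values of Gapdh, Pgk1, Ldha and other glycolytic genes with processed pseudogenes are uncertain, since near-identical copies could share their reads.

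At the entry of pyruvate into mitochondria, kinases and their target went apart. Pdk1, a HIF-induced kinase that switches off pyruvate dehydrogenase, had 578, 788 and 660.3 CPM in the Asb2fl/fl libraries, against 336, 258 and 275 CPM in the Asb2fl/+ libraries (log2 fold change 1.22, SE 0.16, adjusted p = 0.000914), and Pdk4 rose by 1.16. Of the dehydrogenase complex, Pdhb (-0.98), Dld (-0.82) and Pdhx (-1.14) fell, and Pdha1 did not pass (-0.35). Pdhx, the component that anchors Dld, had 30.1, 27.1 and 31.5 CPM in Asb2fl/fl, against 73.8, 66.7 and 57.8 CPM in Asb2fl/+, without overlap. Of the 13 genes of this list 2 rose and 5 fell, against 10.7% and 10.9% of all genes. The count of 5 was 3 without Asb2fl/fl library 1, Asb2fl/+ library 1 or Asb2fl/+ library 2.

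**Figure D2:**
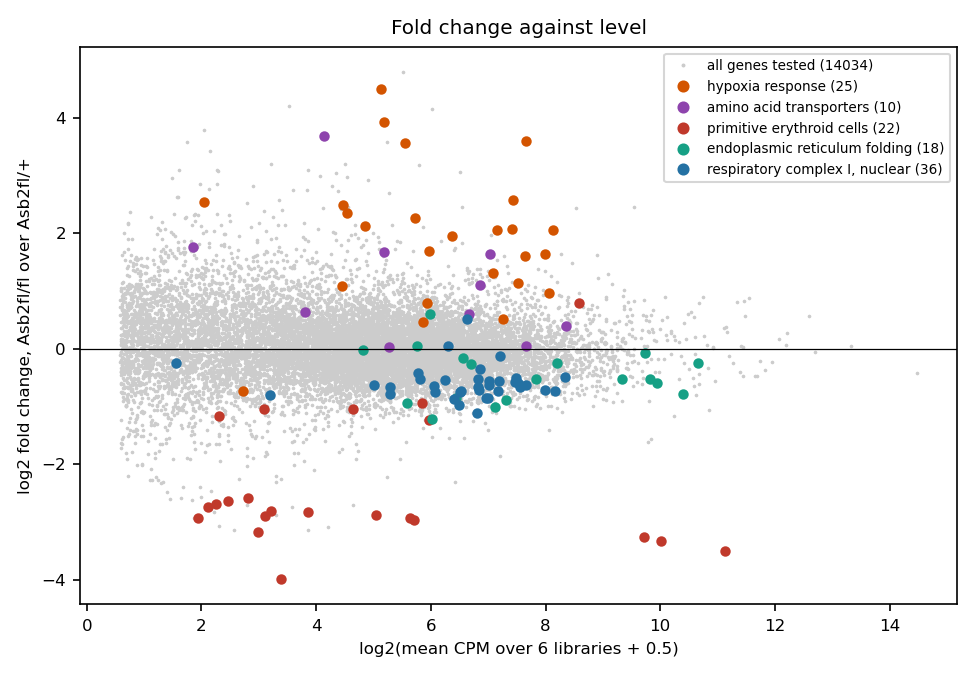
Log2 fold change of 14034 genes, Asb2fl/fl over Asb2fl/+, against log2 of the mean CPM over 6 libraries, with 5 gene lists in colour. Hypoxia response genes and amino acid transporters lie above 0 with 1 exception, most primitive erythroid genes lie below -2, and genes of endoplasmic reticulum folding and complex I lie mostly between 0 and -1.

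Genes of respiration fell together, by smaller amounts. Respiratory complexes I to IV pass electrons from nutrients to oxygen, and ATP synthase uses the resulting proton gradient. Of 36 nuclear genes of complex I, 29 fell and 1 rose (median -0.64), against a background of 10.9% of all genes that fell. All 13 tested genes of complexes II and III fell (median -0.69). For complex IV with cytochrome c 8 of 14 fell and 1 rose, and for ATP synthase 11 of 14 fell and 0 rose (medians -0.59 and -0.79). Of the 13 protein genes of the mitochondrial genome, mt-Nd4l, mt-Co2, mt-Co3, mt-Atp6 and mt-Atp8 were not listed and mt-Nd3 was below the filter. Of the 7 tested 6 fell (median -0.93), and of 12 citric acid cycle genes 7 fell (median -0.66). Leaving out a library moved these counts. For complex I the count of 29 was 17 without Asb2fl/fl library 1, 13 without Asb2fl/+ library 1 and 12 without Asb2fl/+ library 2, and for ATP synthase the count of 11 was 6 without Asb2fl/+ library 1 and 5 without Asb2fl/+ library 2. For complex IV the count of 8 was 5 without Asb2fl/fl library 1, 3 without Asb2fl/+ library 1 and 3 without Asb2fl/+ library 2.

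Cycs, which encodes the electron carrier cytochrome c, had 7.4, 6.8 and 10.7 CPM in the Asb2fl/fl libraries, against 21.5, 24.1 and 21.7 CPM in the Asb2fl/+ libraries (log2 fold change -1.41, SE 0.20, adjusted p = 0.00144). The mitochondrial gene mt-Nd1 had 435, 411 and 442 CPM in Asb2fl/fl, against 1366, 1528 and 1107 CPM in Asb2fl/+ (-1.62, SE 0.15, adjusted p = 0.000186), and mt-Cytb fell by a log2 fold change of -1.57. No Asb2fl/fl library reached the lowest Asb2fl/+ library in either. Sdhb, the iron-sulfur subunit of complex II, had 149, 169 and 212 CPM in Asb2fl/fl, against 358, 376 and 318 CPM in Asb2fl/+ (-0.997, SE 0.15, adjusted p = 0.00217). Cox4i2, the low-oxygen isoform of a complex IV subunit, was the exception of its list, with 46.7, 78.1 and 75.1 CPM in the Asb2fl/fl libraries, against 14.3, 8.04 and 7.67 CPM in the Asb2fl/+ libraries (log2 fold change 2.70, SE 0.26, adjusted p = 0.000241). The usual isoform Cox4i1 had 517, 579 and 693 CPM in Asb2fl/fl, against 983, 810.1 and 691 CPM in Asb2fl/+ (log2 fold change -0.47, adjusted p = 0.0728). Per kilobase Cox4i1 was 359.7 ± 53.8 in Asb2fl/fl and 499.6 ± 88.7 in Asb2fl/+ CPM, still above Cox4i2 at 85.1 ± 22.1 in Asb2fl/fl and 12.8 ± 4.77 in Asb2fl/+ CPM (SD, n = 3 each). The complex I gene that rose was Ndufv3 (0.52), a call lost without Asb2fl/fl library 2 (adjusted p = 0.0629), Asb2fl/fl library 3 (0.084), Asb2fl/+ library 2 (0.0935) or Asb2fl/+ library 3 (0.0779).

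The machinery that makes the mitochondrial gene products moved the same way. Of 75 mitochondrial ribosome genes 47 fell and 0 rose, with a median of -0.56, while of 76 genes of the cytosolic ribosome 4 fell and 0 rose, with a median of -0.06. The count of 47 was 26 without Asb2fl/fl library 2, 19 without Asb2fl/+ library 1 and 18 without Asb2fl/+ library 2. Mrpl16, a subunit of the large mitochondrial ribosome, had 32.8, 32.8 and 45.7 CPM in Asb2fl/fl, against 81.98, 73.5 and 66.1 CPM in Asb2fl/+ (-0.997, SE 0.16, adjusted p = 0.00297). Fatty acid oxidation genes were mixed, with 5 of 16 lower and 1 higher, against 10.9% and 10.7% of all genes. The count of lower ones was 3 without Asb2fl/+ library 2. Hadhb, a subunit of the trifunctional enzyme, fell by a log2 fold change of -0.97, and the fatty acid transporter gene Cd36 rose by 0.87.

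In complex I genes Asb2fl/fl library 3 lay closest to the Asb2fl/+ group. The median log2 deviation of complex I genes was -0.48, -0.39 and -0.08 in Asb2fl/fl libraries, against 0.42, 0.39 and 0.11 in Asb2fl/+ libraries, so library 3 of both groups stood near the middle. Many of these transcripts are short. Fold changes correlated with gene length over all genes (Spearman's rho 0.25, a description over genes that share libraries). Among 1993 genes under 1500 bases 15.9% fell and 3.56% rose, against 10.1% and 11.9% of the 12041 longer genes. Transcripts of the listed mitochondrial genes, which are a part of that genome, took 0.351, 0.39 and 0.352% of the signal in Asb2fl/fl libraries. In Asb2fl/+ libraries they took 0.732, 0.908 and 0.606%. With the trend over gene length removed, 23 of 36 complex I genes, 9 of 14 ATP synthase genes and 39 of 75 mitochondrial ribosome genes fell. Primitive erythroid markers were lower in the same libraries, and their part was not tested.

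A further group of genes that rose belongs to the integrated stress response, in which kinases that sense amino acid shortage, heme shortage or misfolded protein raise translation of the transcription factor ATF4. ATF4 then induces amino acid transporters and enzymes of serine and asparagine synthesis. ATF4 binds with CEBP proteins to composite elements. The Chac1 window (chr2:119350992-119351241, plus strand) held a match to the letters of such an element, read as TGATGNAAN on the other strand and shown in capitals at -194.
Chac1: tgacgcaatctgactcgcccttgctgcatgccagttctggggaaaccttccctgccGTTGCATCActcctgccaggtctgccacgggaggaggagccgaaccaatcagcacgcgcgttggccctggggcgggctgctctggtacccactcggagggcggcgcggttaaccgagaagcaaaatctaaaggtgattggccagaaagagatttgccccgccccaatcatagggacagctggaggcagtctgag

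Of all tested genes with a window 1.921% held TGATGNAAN on either strand. It was found in 2 of 14 windows of stress response regulators, 3 of 14 of the serine and one-carbon list and 1 of 6 of the transporter list. The windows of Shmt2 and Slc1a4, picked from the last 2 lists by the rule that picked Chac1, held no match.

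Of 15 tested regulators of this response 9 rose and 0 fell (median 0.66). The count of 9 was 6 to 10 when each library was left out in turn. Chac1, which degrades glutathione, had 13.7, 32.2 and 18.5 CPM in the Asb2fl/fl libraries, against 0.395, 0.933 and 0.582 CPM in the Asb2fl/+ libraries (log2 fold change 4.21, SE 0.34, adjusted p = 8.36e-05). Trib3, a pseudokinase that feeds back on ATF4, had 29.9, 128 and 50.95 CPM in Asb2fl/fl, against 5.4, 2.96 and 5.13 CPM in Asb2fl/+ (3.59, SE 0.47, adjusted p = 0.00214). Both were close to absent or low in all Asb2fl/+ libraries and highest in Asb2fl/fl library 2. Atf4 itself had 245, 358 and 295 CPM in the Asb2fl/fl libraries, against 188, 170.0 and 138 CPM in the Asb2fl/+ libraries (log2 fold change 0.85, SE 0.17, adjusted p = 0.00761). The other transcription factors Ddit3 and Atf3 rose by 2.00 and 2.01. Sesn2, a leucine sensor that restrains mTORC1, had 35.1, 75.9 and 49.3 CPM in Asb2fl/fl, against 13.4, 12.2 and 13.3 CPM in Asb2fl/+ (1.93, SE 0.24, adjusted p = 0.000632). Of the 4 kinases of the response, Eif2ak4, which senses uncharged tRNA, rose by 0.53, a call lost without Asb2fl/fl library 1 (adjusted p = 0.126), Asb2fl/fl library 2 (0.118), Asb2fl/+ library 1 (0.151), Asb2fl/+ library 2 (0.117) or Asb2fl/+ library 3 (0.0517). Eif2ak1, Eif2ak2 and Eif2ak3 were at -0.44, -0.05 and 0.09 without passing.

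Of 17 genes of serine, one-carbon, asparagine and proline synthesis 10 rose and 1 fell (median 0.77). The mitochondrial enzymes of the one-carbon pathway, Shmt2 (1.31), Mthfd2 (0.75) and Mthfd1l (1.26), rose. Their cytosolic counterparts Shmt1 (-0.47) and Mthfd1 (-0.40) did not pass. Mthfd1l, which makes formate in mitochondria, had 161, 197 and 177 CPM in Asb2fl/fl, against 78.4, 66.98 and 76.6 CPM in Asb2fl/+, with no overlap (1.26, SE 0.13, adjusted p = 0.000281). Pycr1, an enzyme of proline synthesis in mitochondria, rose by 1.27. Asns, asparagine synthetase, had 120.5, 194 and 139 CPM in Asb2fl/fl, against 71.7, 58.9 and 52.02 CPM in Asb2fl/+ (1.29, SE 0.19, adjusted p = 0.00148). Phgdh, the first enzyme of serine synthesis, did not pass (0.28). Of 10 amino acid transporters 6 rose and 0 fell. Slc7a11, the cystine importer, had 3.75, 6.99 and 4.34 CPM in Asb2fl/fl, against 0.889, 1.92 and 0.684 CPM in Asb2fl/+ (1.76, SE 0.36, adjusted p = 0.00837), and Slc7a5, the leucine importer, rose by 1.64 with its partner Slc3a2 at 1.11. Slc7a3, an importer of arginine and lysine, had the largest rise of the transporters, with 19.5, 51.7 and 26.3 CPM in Asb2fl/fl, against 2.01, 1.67 and 1.92 CPM in Asb2fl/+ (3.68, SE 0.32, adjusted p = 0.000103). Cytosolic tRNA synthetases went both ways, 4 of 20 higher and 4 lower, against 10.7% and 10.9% of all genes. The count of lower ones was 0 without Asb2fl/+ library 1. Cars and Sars, for cysteine and serine, rose by 0.70 and 0.78.

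Genes of protein folding in the endoplasmic reticulum, which the other arms of the unfolded protein response induce, fell: 10 of 18, with 0 higher (median -0.52). Hspa5, the main chaperone of this compartment (also BiP), had 1009, 851 and 1114 CPM in the Asb2fl/fl libraries, against 1608, 1817 and 1664 CPM in the Asb2fl/+ libraries (log2 fold change -0.78, SE 0.15, adjusted p = 0.0069). Dnajb11, its cochaperone, had 89.2, 84.9 and 103 CPM in Asb2fl/fl, against 203, 181 and 172 CPM in Asb2fl/+ (-1.01, SE 0.13, adjusted p = 0.000892), and Creld2, a secreted stress protein, fell by a log2 fold change of -1.21. Herpud1, an ATF4 target in this list, was at 0.61 without passing. Stress response regulators and chaperones thus moved in opposite directions in the same libraries. The count of 10 was 5 without Asb2fl/+ library 2 and 6 without Asb2fl/+ library 3. Summed over the list, chaperone transcripts came to 5848 to 7112 CPM in Asb2fl/fl libraries and 8487 to 9441 CPM in Asb2fl/+ libraries.

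**Figure D3:**
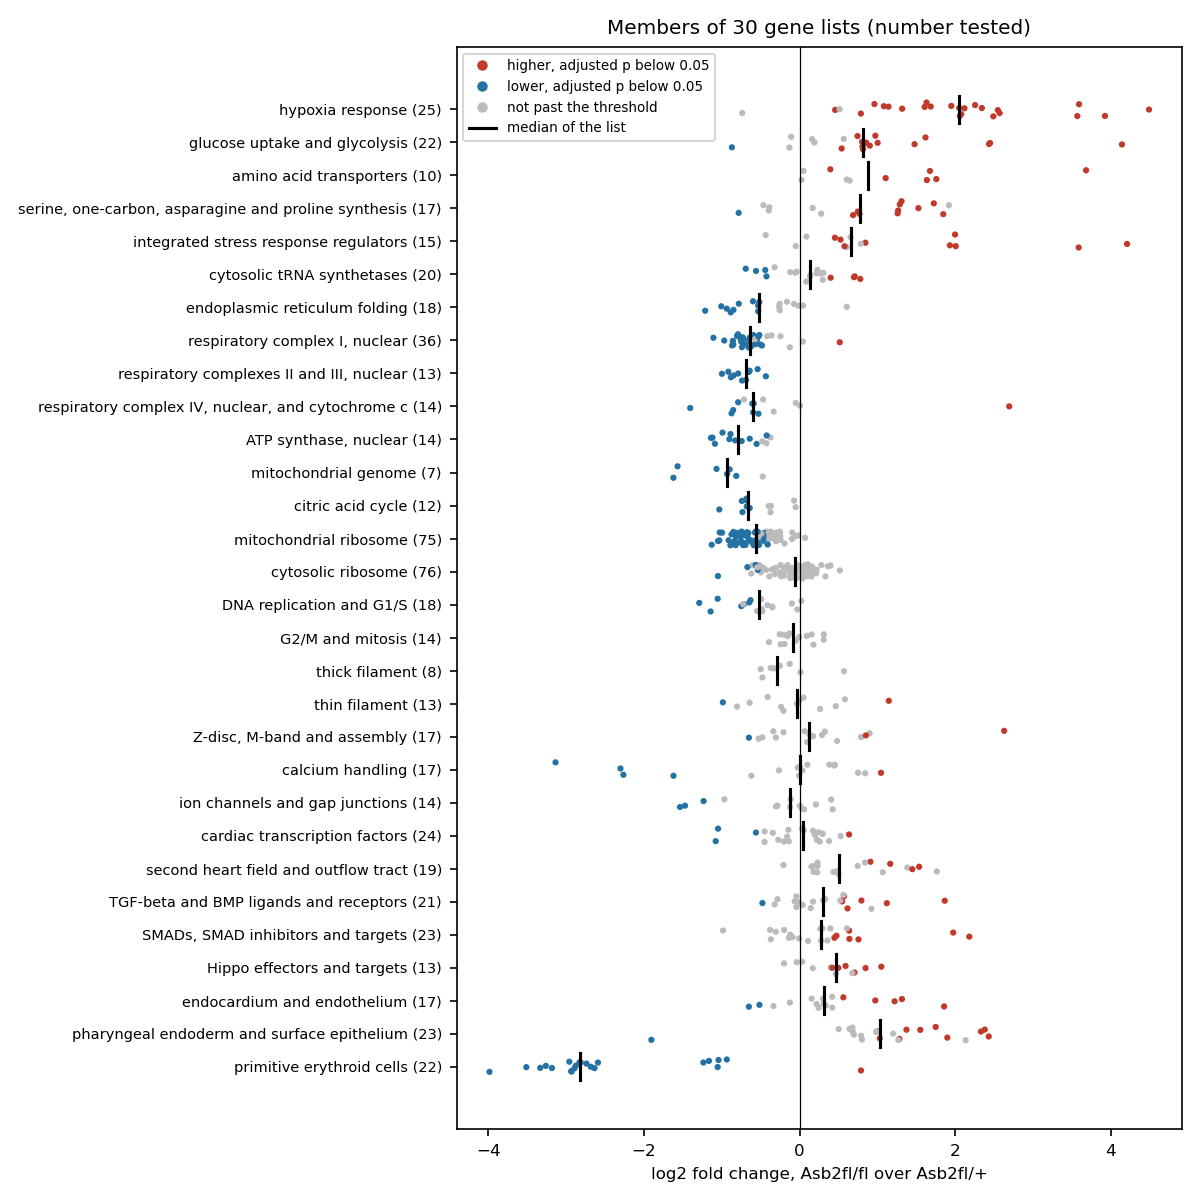
Log2 fold change of each tested member of 30 gene lists, Asb2fl/fl over Asb2fl/+, with the list's median as a black bar and members past the threshold in red (higher) or blue (lower). Hypoxia, glycolysis and amino acid lists lie right of 0, respiratory and erythroid lists left of it, and sarcomere lists around it.

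Some genes of the entry into DNA replication fell, beside 10.9% of all genes. Of 18 genes of replication and the G1/S transition 7 fell (median -0.52), while 0 of 14 mitotic genes passed with limma or edgeR (median -0.09), 1 with DESeq2 and 3 at an unadjusted p below 0.05 in limma. The difference between the lists was not tested, and the count of 7 was 11 without Asb2fl/fl library 1, 4 without Asb2fl/fl library 2, 2 without Asb2fl/+ library 2 and 4 without Asb2fl/+ library 3. Ccne1, which encodes cyclin E1, had 48.4, 19.99 and 40.98 CPM in the Asb2fl/fl libraries, against 80.8, 75.9 and 71.7 CPM in the Asb2fl/+ libraries (log2 fold change -1.14, SE 0.28, adjusted p = 0.0194), a call lost without Asb2fl/+ library 2 (adjusted p = 0.0549). E2f2 had 5.39, 4.26 and 4.37 CPM in Asb2fl/fl, against 11.5, 11.3 and 13.6 CPM in Asb2fl/+ (-1.29, SE 0.21, adjusted p = 0.00302). In E2f2 the groups were apart. The level of this list in Asb2fl/fl library 1 was 0.17, close below the Asb2fl/+ libraries at 0.23 to 0.39, and library 2 was lowest at -0.64. The cyclin-dependent kinase inhibitors split, with Cdkn1b (p27) higher at 92.2, 120.2 and 92.2 CPM in Asb2fl/fl, against 44.3, 49.7 and 50.3 CPM in Asb2fl/+ (1.06, SE 0.14, adjusted p = 0.00107) and Cdkn1c (p57) lower at 638, 633 and 974 CPM in Asb2fl/fl, against 1576, 1625 and 1767 CPM in Asb2fl/+ (-1.17, SE 0.18, adjusted p = 0.00232). Cdkn1a (p21) did not pass (0.90, adjusted p = 0.0741). The cell death genes Bbc3 (PUMA) and Hrk, of the BCL2 family, rose. Bbc3 had 14.6, 27.9 and 16.6 CPM in Asb2fl/fl, against 4.57, 6.2 and 7.19 CPM in Asb2fl/+ (1.61, SE 0.27, adjusted p = 0.00316), and Hrk had 4.32, 10.3 and 6.95 CPM in Asb2fl/fl, against 0.0329, 0.0549 and 0 CPM in Asb2fl/+, where the Asb2fl/+ value rests on 3 reads in all, so no fold is given. Trp53, its target Mdm2 and Bax were at 0.03, -0.07 and -0.24 without passing.

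Of 38 genes of the contractile apparatus, in 3 lists, 5 passed (13.2%), against 21.6% of all genes in either direction. Sarcomeres are repeating units of myosin thick filaments and actin thin filaments held at Z-discs. Of 8 thick filament genes 0 passed with limma or edgeR, 1 with DESeq2 and 1 at an unadjusted p below 0.05 in limma (median -0.29). The groups overlapped for all of them, whereas 41.4% of all tested genes had groups without overlap. Of 13 thin filament genes 1 rose and 1 fell, and of 17 genes of the Z-disc, M-band and assembly 2 rose and 1 fell, the last being the myosin chaperone gene Unc45b (-0.65), whose call was lost without Asb2fl/fl library 1 (adjusted p = 0.0929), Asb2fl/fl library 2 (0.0731), Asb2fl/+ library 1 (0.122) or Asb2fl/+ library 3 (0.0675). The spread within the Asb2fl/fl group was wide. Thick filament genes stood at -0.55, 0.09 and 0.16 in Asb2fl/fl libraries, against 0.46, -0.12 and -0.09 in Asb2fl/+ libraries, so library 1 was the lowest of the one group and the highest of the other. Myh6, alpha myosin heavy chain, had 2174, 4166 and 3159.6 CPM in the Asb2fl/fl libraries, against 5247, 2996 and 3935 CPM in the Asb2fl/+ libraries (log2 fold change -0.37, adjusted p = 0.326). Ttn, the giant spring protein titin, had 1327, 3200.5 and 1741 CPM in Asb2fl/fl, against 1741, 706 and 1160.0 CPM in Asb2fl/+ (log2 fold change 0.79, adjusted p = 0.171).

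Single genes stood out of these lists. Lmod2, which lengthens thin filaments, had 81.4, 121 and 126 CPM in the Asb2fl/fl libraries, against 50.9, 44.5 and 49.7 CPM in the Asb2fl/+ libraries (log2 fold change 1.15, SE 0.17, adjusted p = 0.00187). Tnni3, the troponin I of the mature heart, had 212, 349 and 364 CPM in Asb2fl/fl, against 742, 552 and 513 CPM in Asb2fl/+ (-0.99, SE 0.22, adjusted p = 0.0113), while the fetal form Tnni1 was at -0.64 without passing. Tcap, the titin cap, rose by 0.85, a call lost without Asb2fl/fl library 2 (adjusted p = 0.0758), Asb2fl/fl library 3 (0.0635), Asb2fl/+ library 2 (0.0681) or Asb2fl/+ library 3 (0.0637). Xirp2, which lies at the ends of myofibrils, had 3.19, 5.4 and 5.37 CPM in Asb2fl/fl, against 0.921, 0.165 and 0.0684 CPM in Asb2fl/+, so it was near the limit of detection in Asb2fl/+ libraries.

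Calcium handling genes included some of the deepest falls outside blood genes. Of 17 tested, 4 fell and 1 rose, against 10.9% and 10.7% of all genes. Pln, phospholamban, had 18.5, 37.7 and 30.2 CPM in the Asb2fl/fl libraries, against 102, 143 and 181 CPM in the Asb2fl/+ libraries (log2 fold change -2.30, SE 0.27, adjusted p = 0.000892). Trdn, triadin, which anchors calsequestrin at the release channel, had 15.7, 25.1 and 28.97 CPM in Asb2fl/fl, against 78.8, 72.8 and 60.7 CPM in Asb2fl/+ (-1.62, SE 0.21, adjusted p = 0.000892), and Casq2, calsequestrin of the heart, had 1.06, 1.86 and 2.2 CPM in Asb2fl/fl, against 9.35, 9.74 and 10.5 CPM in Asb2fl/+. Cav3, the caveolin of muscle, had 2.65, 2.2 and 2.27 CPM in Asb2fl/fl, against 16.3, 31.2 and 29.8 CPM in Asb2fl/+ (-3.14, SE 0.27, adjusted p = 0.000103), the deepest fall of the list. In these 4 genes every Asb2fl/fl library lay below every Asb2fl/+ library. Groups without overlap were found for 7 of the 17 genes, near the 41.4% of all tested genes. The release channel Ryr2 (0.75) and the calcium pump Atp2a2 (0.04) did not pass. Fkbp1b, a regulator of the release channel, was the member that rose (1.047), a call lost without Asb2fl/fl library 2 (adjusted p = 0.0578), Asb2fl/fl library 3 (0.0523) or Asb2fl/+ library 3 (0.0581).

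Of 14 genes of ion channels and gap junctions 3 fell and 0 rose, against 10.9% and 10.7% of all genes. Gja5, connexin 40 of atria and trabeculae, had 23.4, 36.5 and 37.8 CPM in Asb2fl/fl, against 63.8, 111 and 115 CPM in Asb2fl/+ (-1.54, SE 0.25, adjusted p = 0.00334). The potassium channel Kcnj3 fell by a log2 fold change of -1.47. Gja1 (0.21), Gjc1 (0.03) and the pacemaker channel Hcn4 (0.41) did not pass.

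Among 24 cardiac transcription factors 1 rose and 3 fell, shares below and near those of all genes (10.7% higher and 10.9% lower). Hand1, a factor of the outer curvature of the left ventricle, had 34.8, 32.9 and 40.8 CPM in the Asb2fl/fl libraries, against 76.2, 66.5 and 83.2 CPM in the Asb2fl/+ libraries (log2 fold change -1.048, SE 0.14, adjusted p = 0.00116), and Irx4, a ventricular factor, had 26.1, 34.4 and 44.7 CPM in Asb2fl/fl, against 101, 60.7 and 62.9 CPM in Asb2fl/+ (-1.08, SE 0.23, adjusted p = 0.0107). Hand2 fell by a log2 fold change of -0.56, with groups apart in all 3 genes. That held for 5 of the 24 factors and 41.4% of all tested genes. Tbx2, a repressor of the chamber programme in the atrioventricular canal, was the factor that rose (0.64), a call lost without Asb2fl/fl library 3 (adjusted p = 0.0576), Asb2fl/+ library 2 (0.0635) or Asb2fl/+ library 3 (0.0614). The factors that specify heart muscle, Nkx2-5 (-0.20), Gata4 (0.26), Tbx5 (0.20) and Mef2c (0.03), did not pass. Of 13 Notch pathway genes 2 rose and 1 fell, against 10.7% and 10.9% of all genes. The receptor gene Notch3 had 168, 157 and 129 CPM in Asb2fl/fl, against 50.3, 67.5 and 84.1 CPM in Asb2fl/+ (1.19, SE 0.19, adjusted p = 0.00234), and the ligand gene Jag2 rose by 0.75, a call lost without Asb2fl/fl library 2 (adjusted p = 0.0872), Asb2fl/fl library 3 (0.0662), Asb2fl/+ library 2 (0.107) or Asb2fl/+ library 3 (0.0573). Heyl, a Notch target, had 1.21, 1.29 and 0.31 CPM in Asb2fl/fl, against 2.96, 4.91 and 6.37 CPM in Asb2fl/+ (-1.90, SE 0.40, adjusted p = 0.00902), while the ventricular Hey2 (-0.19) and the receptor Notch1 (0.40) did not pass.

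Of 12 genes of natriuretic peptides and trabeculation signals 1 rose and 1 fell, against 10.7% and 10.9% of all genes. Bmp10, a growth factor of trabecular muscle, had 13.9, 23.6 and 18.3 CPM in the Asb2fl/fl libraries, against 43.3, 22.2 and 39.97 CPM in the Asb2fl/+ libraries (log2 fold change -0.87, SE 0.26, adjusted p = 0.0401), with overlapping groups and a call lost without Asb2fl/fl library 1 (adjusted p = 0.108), Asb2fl/fl library 3 (0.0896), Asb2fl/+ library 1 (0.119) or Asb2fl/+ library 3 (0.118). Adamts1, a protease that clears the matrix between muscle and endocardium, rose by 0.62. Its call was lost without Asb2fl/+ library 1 (adjusted p = 0.0535) or Asb2fl/+ library 2 (0.0504). Nppa and Nppb, the natriuretic peptides, were at 0.15 and 0.98 without passing (adjusted p = 0.747 and 0.0511). Of 10 imprinted growth genes 3 rose and 1 fell, beside the same shares of all genes. Meg3, a maternally expressed noncoding RNA, had 318, 400.4 and 373 CPM in Asb2fl/fl, against 191, 137 and 111 CPM in Asb2fl/+ (1.34, SE 0.19, adjusted p = 0.00131), with groups apart, and Peg10, a paternally expressed gene, rose by 1.29. The call of Peg10 was lost without Asb2fl/fl library 2 (adjusted p = 0.076). Mest was the member that fell (-0.48), a call lost without any one of the 6 libraries.

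Of 21 Wnt pathway genes 3 rose and 1 fell, against 10.7% and 10.9% of all genes. The receptor gene Fzd7 had 215, 173 and 153 CPM in Asb2fl/fl, against 64.2, 81.3 and 89.3 CPM in Asb2fl/+ (1.197, SE 0.17, adjusted p = 0.00124), and the ligand gene Wnt4 had 12.8, 5.21 and 7.29 CPM in Asb2fl/fl, against 24.9, 21.05 and 19.2 CPM in Asb2fl/+ (-1.40, SE 0.28, adjusted p = 0.0074). Neither overlapped between groups, which held for 41.4% of all tested genes. The receptors Fzd1 (1.06) and Fzd2 (0.47) rose, and both calls were lost without any one of Asb2fl/fl library 3, Asb2fl/+ library 1 or Asb2fl/+ library 3. That of Fzd1 was also lost without Asb2fl/fl library 2, and that of Fzd2 without Asb2fl/fl library 1 or Asb2fl/+ library 2. In the second heart field list, described with neighbouring tissues further on, Fgf8 and Prdm1 rose beside Fgf10. The call of Fgf8 was lost without Asb2fl/fl library 1 (adjusted p = 0.0511). Sterol synthesis and lipid droplet genes had 3 of 16 lower and 1 higher, against 10.9% and 10.7% of all genes. The higher one was the lipoprotein receptor gene Vldlr described further on. The count of 3 was 1 without Asb2fl/fl library 2, Asb2fl/fl library 3, Asb2fl/+ library 1 or Asb2fl/+ library 3.

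In signalling and cytoskeletal lists more genes rose than fell. Of 13 genes of the Hippo pathway, through which cells read tension in the actin cytoskeleton, 6 rose and 0 fell. Cyr61, a matricellular target of the effector YAP, had 90.04, 125 and 115 CPM in Asb2fl/fl, against 56.9, 48.2 and 51.95 CPM in Asb2fl/+ (1.052, SE 0.15, adjusted p = 0.00135). Its relative Ctgf, counted not here but in the SMAD list below, had 135, 259 and 243 CPM in Asb2fl/fl, against 57.3, 50.1 and 47.7 CPM in Asb2fl/+ (1.98, SE 0.22, adjusted p = 0.000455). In the Hippo list Cyr61 had the largest rise. Wwtr1 (TAZ) rose by 0.71 and Yap1 was at 0.03 without passing. Of 23 SMAD genes, inhibitors and targets 7 rose and 0 fell, and of 21 ligands and receptors 6 rose and 1 fell. Over all genes 10.7% rose and 10.9% fell. The count of 7 was 3 without Asb2fl/fl library 2, 4 without Asb2fl/fl library 3, 3 without Asb2fl/+ library 1 and 4 without Asb2fl/+ library 2, and the count of 6 for ligands and receptors was 3 without Asb2fl/+ library 2. Id1, Id2, Id3 and Id4, which BMP signals induce, were at -0.01, -0.20, -0.37 and -0.31 without passing. Of 23 genes of actin and focal adhesion 4 rose and 0 fell, Myh10, a non-muscle myosin, among them at 0.69. The count of 4 was 2 without Asb2fl/fl library 2 and 1 without Asb2fl/+ library 2, against a background of 10.7% of all genes. In the extracellular matrix Postn, periostin of the cushions, had 9.82, 2.17 and 8.36 CPM in Asb2fl/fl, against 26.4, 43.96 and 55.5 CPM in Asb2fl/+ (-2.70, SE 0.51, adjusted p = 0.0102), and the crosslinking enzyme gene Loxl2 had 102, 136 and 107 CPM in Asb2fl/fl, against 37.3, 42.04 and 47.8 CPM in Asb2fl/+ (1.42, SE 0.15, adjusted p = 0.000309).

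Markers of other cells moved as well. Primitive erythroid genes, read here as a measure of blood in the sample, summed to 1018 to 1851 CPM in Asb2fl/fl libraries and 8017 to 8801 CPM in Asb2fl/+ libraries. Of 22 tested 21 fell and 1 rose. Klf1, the erythroid master regulator, had 0.796, 0.608 and 2.13 CPM in the Asb2fl/fl libraries, against 14.1, 11.7 and 15.5 CPM in the Asb2fl/+ libraries (log2 fold change -3.18, SE 0.34, adjusted p = 0.000292), and Slc4a1, the anion exchanger of the red cell membrane, had 9.78, 6.76 and 19.9 CPM in Asb2fl/fl, against 92.4, 66.8 and 114 CPM in Asb2fl/+ (-2.96, SE 0.35, adjusted p = 0.00116). No Asb2fl/fl library came near the Asb2fl/+ libraries in either gene. Tfrc, the transferrin receptor used by all dividing cells and induced by HIF, was the member that rose (0.79). Tal1 and Fech, which other cells also use, fell less (-1.04 and -0.94). Hemoglobin transcripts took 0.0511, 0.0632 and 0.117% of the signal in Asb2fl/fl libraries, against 0.708, 0.747 and 0.782% in Asb2fl/+ libraries. Rescaling without the hemoglobin genes gave 2938 genes past the threshold, as a count and not as shared genes. Since these genes took at most 0.782% of the signal, it could change fold changes only slightly. The part of blood in the other values was not tested by it.

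Of 17 endothelial genes tested 5 rose and 2 fell (median 0.31), against 10.7% and 10.9% of all genes. Flt1 and Kdr, both VEGF receptors, had 122, 199.8 and 121 CPM in Asb2fl/fl, against 70.3, 54.99 and 58.97 CPM in Asb2fl/+ (1.22, SE 0.20, adjusted p = 0.00261) and 215, 322 and 221 CPM in Asb2fl/fl, against 143, 107 and 130.5 CPM in Asb2fl/+ (0.97, SE 0.18, adjusted p = 0.00494). Sox17, a transcription factor of endocardium and arterial endothelium, had 18.2, 26.1 and 22.7 CPM in Asb2fl/fl, against 5.23, 7.3 and 4.93 CPM in Asb2fl/+ (1.86, SE 0.22, adjusted p = 0.000479). The falls were Tek and Emcn (-0.52 and -0.65). Their count of 2 was 0 without Asb2fl/fl library 1 or Asb2fl/+ library 3, and 1 without Asb2fl/fl library 3, Asb2fl/+ library 1 or Asb2fl/+ library 2. Pecam1, the general marker, did not pass (0.42).

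Markers of pharyngeal endoderm and surface epithelium, tissues next to the heart, were higher, 10 of 23 with 1 lower (median 1.03), and summed to 1308 to 1517 CPM in Asb2fl/fl libraries and 425 to 588 CPM in Asb2fl/+ libraries. More than the sum of all other members came from the keratin genes Krt8, Krt18 and Krt19, of which early heart muscle also makes Krt8 and Krt18. Krt8 had 221, 167 and 238 CPM in Asb2fl/fl, against 119, 107 and 80.7 CPM in Asb2fl/+, and Krt19 had 416, 728 and 736 CPM in Asb2fl/fl, against 155, 103 and 87.7 CPM in Asb2fl/+ (2.43, SE 0.26, adjusted p = 0.000495). The endoderm factor Foxa1 had 18.6, 9.39 and 12.8 CPM in Asb2fl/fl, against 0.823, 4.36 and 2.26 CPM in Asb2fl/+ (2.38, SE 0.43, adjusted p = 0.00556). The count of 10 was 6 without Asb2fl/+ library 1. Against 10.7% of all genes, neural crest markers had 1 of 15 higher and epicardial markers 0 of 9 (also 0 with edgeR, DESeq2 and at an unadjusted p below 0.05). Liver and yolk sac markers had 3 of 16 higher. The last count was 5 without Asb2fl/fl library 2 and 1 without Asb2fl/fl library 3. The summed epicardial level was 60.4 CPM in Asb2fl/+ library 1, below the other libraries of both groups (164.8 to 423 CPM), and its endoderm level was also low (-1.27, against -0.53 and 0.13 in the other Asb2fl/+ libraries). The second heart field list, whose genes are also used in these tissues, had 4 of 19 higher, against 10.7% of all genes. Its level was lowest in the same library (-0.90), and its count was 2 without Asb2fl/fl library 1. Fgf10 had 23.8, 23.3 and 25.1 CPM in Asb2fl/fl, against 10.2, 11.1 and 10.03 CPM in Asb2fl/+ (1.17, SE 0.16, adjusted p = 0.00107). The part of neighbouring tissue in the second heart field values was not tested.

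Further single genes changed by large amounts. Stmn4, a tubulin-binding stathmin known from neurons, had 67.8, 115 and 80.2 CPM in the Asb2fl/fl libraries, against 0.889, 3.18 and 5.37 CPM in the Asb2fl/+ libraries (log2 fold change 4.79, SE 0.47, adjusted p = 0.000574). Of 8 neuronal markers tested it was the only one that rose, and Stmn2, a close relative, was at -0.24 without passing. Sncb, beta-synuclein, had 3.79, 7.45 and 5.88 CPM in Asb2fl/fl, against 0, 0 and 0 CPM in Asb2fl/+. With no read in the Asb2fl/+ group it was at least 182.9-fold higher in Asb2fl/fl, set against a floor of 3 reads over that group. Vldlr, a lipoprotein receptor that hypoxia induces, had 106, 254 and 129.6 CPM in Asb2fl/fl, against 16.1, 16.02 and 21.8 CPM in Asb2fl/+ (3.06, SE 0.29, adjusted p = 0.000343). Hsph1, a cytosolic chaperone, fell (-1.42, SE 0.16, adjusted p = 0.00042), and it belongs with the heat shock genes. Among the immediate early genes, which handling of tissue induces, Jun (0.71, adjusted p = 0.0066) and Junb (0.71, adjusted p = 0.0385) rose, while Fos and Egr1 were at -0.12 and 0.12 without passing. The call of Junb was lost without Asb2fl/fl library 2 (adjusted p = 0.121), Asb2fl/fl library 3 (0.0796), Asb2fl/+ library 1 (0.0855), Asb2fl/+ library 2 (0.0598) or Asb2fl/+ library 3 (0.106).

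**Figure D4:**
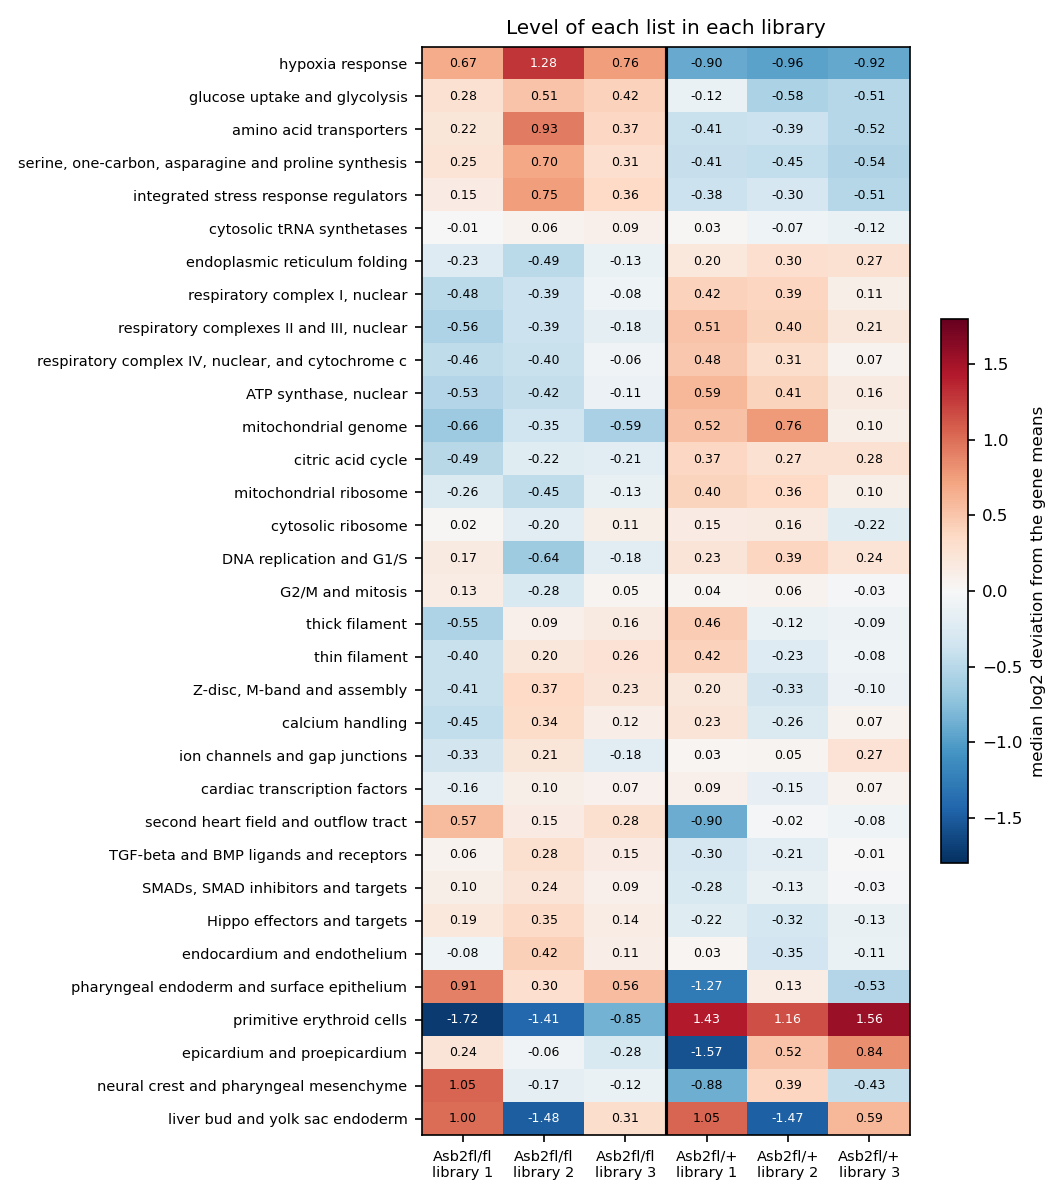
Level of 33 gene lists in each of the 6 libraries, as the median over members of the log2 deviation from the gene's mean, Asb2fl/fl libraries on the left. Hypoxia and erythroid lists separate the groups in every library, while sarcomere lists are lowest in Asb2fl/fl library 1 and lists of neighbouring tissues are uneven within groups.

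The same contrast was then read in the libraries with the Flna label, which entered none of the fold changes above. In these, Asb2 stood at 122, 121 and 153 CPM in libraries labelled Asb2fl/fl.Flnafl/fl, against 125, 113 and 197 CPM in those labelled Asb2fl/+.Flnafl/fl (log2 fold change -0.10, SE 0.21, adjusted p = 0.738), so the targeted gene did not separate them and directions there rest on the labels. Flna was not lower in either group with the Flna label (means of 1057 and 986 CPM) than in the Asb2fl/+ group (589 CPM). Of 13935 genes tested in this pair 2113 rose (15.2%) and 2270 fell (16.3%). The total of 4383 was 2708 without Asb2fl/fl.Flnafl/fl library 2, 2800 without Asb2fl/+.Flnafl/fl library 1 and 2770 without Asb2fl/+.Flnafl/fl library 2. Of the 1467 genes that rose in Asb2fl/fl hearts and were tested in both pairs, 1394 (95.0%) had the same sign and 974 (66.4%) also rose, which is 46.2% of the 2109 rises of the second pair. Of 1506 that fell, 1451 (96.3%) had the same sign and 949 (63.0%) also fell, which is 42.0% of its 2260 falls. A single gene in each set passed in the opposite direction. Fold changes of the 2 pairs had a Pearson r of 0.707 over 13778 genes, a description over genes of 2 sets of libraries.

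Hypoxia response genes had 24 of 25 members higher in the second pair, beside 15.2% of all genes, with a median of 1.92. Ndufa4l2 had 85.5, 75.9 and 69.02 CPM in libraries labelled Asb2fl/fl.Flnafl/fl, against 1.42, 1.85 and 2.13 CPM in those labelled Asb2fl/+.Flnafl/fl (log2 fold change 5.08, SE 0.17, adjusted p = 1.52e-06), and Stmn4 rose by 5.73. The groups did not overlap in these genes. Glycolysis had 18 of 22 higher and 0 lower, stress response regulators 9 of 14 higher and 1 lower, and endoplasmic reticulum folding 11 of 18 lower and 1 higher. Primitive erythroid genes fell in 20 of 22, beside 16.3% of all genes, with a median of -2.59.

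Other lists differed in their medians. In the second pair 16.3% of all genes fell and 15.2% rose. Complex I genes had 5 of 36 lower and 2 higher, both below these shares. Their median was -0.12, against -0.64 in Asb2fl/fl hearts. ATP synthase had 3 of 14 lower with a median of -0.17, against -0.79. Z-disc and M-band genes had 10 of 16 higher and 0 lower with a median of 0.83, against 0.13. Sterol synthesis genes had 14 of 16 lower with a median of -1.02, against -0.19. In the fit of the difference over all 12 libraries 0 of 13963 genes passed (limma, 1360 or 9.74% at an unadjusted p below 0.05), so no single gene was shown to differ between the pairs. The smallest p was that of Cebpa, a transcription factor of liver and fat, at 1.69 in Asb2fl/fl against Asb2fl/+ and -2.18 in the second pair (difference -3.87, limma adjusted p = 0.395). Reln (1.99 and -2.70), Ebf1 (-0.59 and 0.68), Plxna2 (1.04 and -0.14) and Scd1 (0.66 and -1.54) followed.

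**Figure D5:**
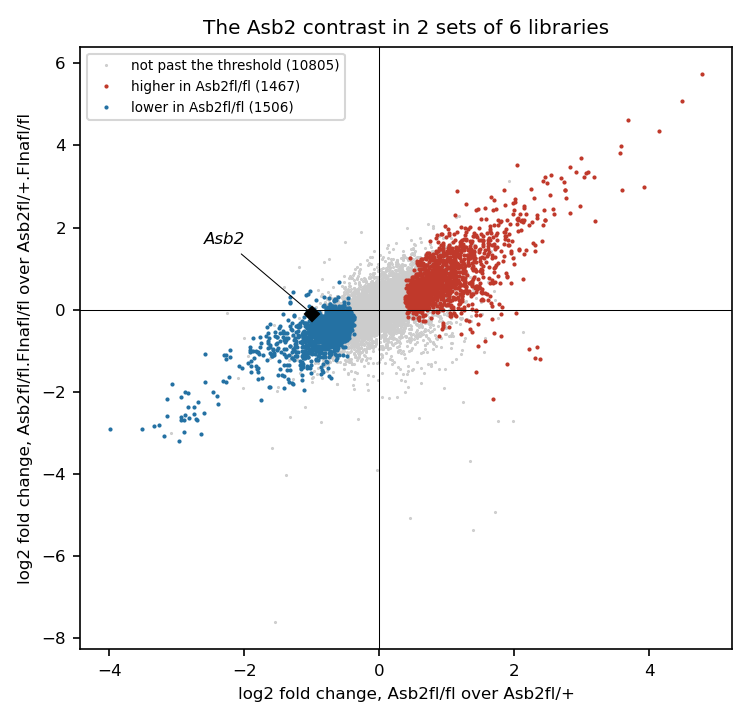
Log2 fold change of 13778 genes in Asb2fl/fl over Asb2fl/+ (x axis) against that in the libraries labelled Asb2fl/fl.Flnafl/fl over Asb2fl/+.Flnafl/fl (y axis), with genes that rose (red) or fell (blue) on the x axis. Most coloured points lie in the quadrants of equal sign, and Asb2 itself (black) is near 0 on the y axis.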

How the data were processed

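RNA-seq signal was measured in the 12 libraries of 4 groups. The submitters' processing notes name STAR, HTSeq, edgeR and mm10, without versions, and whether counting used strand is not given in the sources used here, so reads of overlapping genes cannot be told apart. The authors deposited signal values that they call CPM, on library sizes scaled by 1 factor per library, with columns that sum to 942334 to 1051675. All values (100.0%) were whole multiples of 1 read within 0.01 read. The plan had assumed plain CPM. Deposited log2 fold changes and p-values are the authors' own. A total of 12 columns without headers were not used. Identifiers matched GENCODE M21 for 99.1% of genes, and promoter windows came from RefSeq (GRCm38.p6).

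Groups were compared with limma 3.58.1 (trend, robust; R 4.3.3) on log2(CPM + 0.5), for genes averaging 1 CPM or more. P-values were adjusted by Benjamini-Hochberg and called below 0.05. Python 3.11.15, pandas 2.3.3 and matplotlib 3.10.9 made tables and plots. The fit was tested on simulated data. Replicates differed by more than sampling noise (lowest median chi-square per gene 7.84). Alternatives included pseudocounts, filters, rescaling, a replicate block, edgeR 4.0.16 and DESeq2 1.42.0 on the recovered reads, and leaving out each library. Xist as a covariate and removal of a length trend were added after the data were seen. The members and the 52 gene lists were chosen with earlier results of these data known. The rule named 192 genes: the targeted gene and filamins, the 10 largest rises and falls at 5 CPM or more without overlap, and the first member and up to 3 further members of each list. Other genes in the text were chosen after their values were seen. Results of some genes are not reported here.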

Additional observations from a re-analysis of the deposited data

How the results depend on the processing

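Over 20 alternatives for the main comparison, no named gene past the threshold changed direction. Where the main fit called 3033 genes, edgeR called 2818 and DESeq2 3816 on the recovered reads. With all 12 libraries in the fit 4211 passed, and with Xist as a covariate 3719. These are counts and not shared genes. Leaving out each library gave 1581 to 2508 genes, with 883 to 1229 higher and 698 to 1280 lower. Limma without trend and robust gave 984 lower genes, against 1528. The replicate numbers do not pair the libraries (correlations of same-numbered libraries -0.22, -0.18 and -0.29), and a replicate block gave 1557 genes, 846 higher and 711 lower. In the second pair the range without each library was 2708 to 4614, 1314 to 2280 higher and 1352 to 2334 lower, and the difference between the pairs gave 0 to 6 genes. Asb2 stayed at -0.99 and missed the threshold without trend and robust (adjusted p = 0.0595) and with the replicate block (adjusted p = 0.0522), with -1.25 to -0.72 over the libraries left out. Flna stayed at 0.58 and missed it in the same fits (adjusted p = 0.0921 and 0.135), and also with library weights (0.52, adjusted p = 0.0522) and with the length trend removed (0.37, adjusted p = 0.0965), with 0.45 to 0.73 over the libraries left out. The cause of these losses was not tested.

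Of 150 named genes past the threshold, 148 remain apart from Asb2 and Flna, whose losses are given above. Of these 148, as far as a fit could test them, 24 lost the threshold with the replicate block. Without a library 12 to 23 lost it, and 6 did with the length trend removed. Medians of the lists, which have no test, changed sign in 47 of 1000 cases, the largest being that of sex-linked transcripts without Asb2fl/+ library 2 (-0.22, against 1.58). With 3 libraries a group, genes of few reads are the least certain, and 1 read was worth up to 0.038 CPM.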

Other observations

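Genes outside the lists were chosen for this section after their values were seen, among those averaging 10 CPM or more in their higher group, with groups apart and a call that held when any of the 6 libraries was left out. Histocompatibility genes were among the large rises. H2-K1, of class I, had 26.2, 45.8 and 28.97 CPM in the Asb2fl/fl libraries, against 3.55, 4.06 and 5.07 CPM in the Asb2fl/+ libraries (log2 fold change 2.82, SE 0.24, adjusted p = 0.000103), and H2-Ab1, of class II, had 25.2, 45.98 and 36.5 CPM in Asb2fl/fl, against 5.04, 4.14 and 2.6 CPM in Asb2fl/+ (3.04, SE 0.27, adjusted p = 0.000129). The macrophage marker Csf1r did not pass (-0.67, adjusted p = 0.276), and 9 of 10 markers of white blood cells were below the filter or not in the tables used. Neat1, a long noncoding RNA that scaffolds nuclear paraspeckles, had 16.2, 41.7 and 29.7 CPM in the Asb2fl/fl libraries, against 3.69, 1.48 and 4.65 CPM in the Asb2fl/+ libraries (log2 fold change 2.99, SE 0.41, adjusted p = 0.00177). Pik3ip1, an inhibitor of PI3 kinase, had 27.2, 48.2 and 32.4 CPM in Asb2fl/fl, against 4.31, 5.24 and 4.93 CPM in Asb2fl/+ (2.74, SE 0.22, adjusted p = 9.08e-05), and Crebrf, a regulator of the CREB3 family, rose by 2.42. In the second pair H2-K1, H2-Ab1, Neat1 and Pik3ip1 had log2 fold changes of 2.37, 3.22, 3.696 and 3.11 (adjusted p = 7.23e-05, 6.8e-05, 6.8e-05 and 3.81e-05).

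Single genes of striated muscle outside the lists, picked in the same way and tested as no group, changed in both directions. Tnni3k, a kinase that binds cardiac troponin I, had 2.16, 3.88 and 2.68 CPM in the Asb2fl/fl libraries, against 9.12, 19.02 and 18.96 CPM in the Asb2fl/+ libraries (log2 fold change -2.21, SE 0.32, adjusted p = 0.00142). Sdpr (cavin 2), a partner of caveolins, had 11.4, 23.5 and 18.8 CPM in Asb2fl/fl, against 41.4, 77.0 and 90.5 CPM in Asb2fl/+ (-1.91, SE 0.32, adjusted p = 0.00536), and Scn4b, a beta subunit of the sodium channel, had 5.2, 7.56 and 5.26 CPM in Asb2fl/fl, against 29.1, 13.9 and 17.4 CPM in Asb2fl/+ (-1.62, SE 0.27, adjusted p = 0.00356). The Z-disc gene Myoz1 and the sarcomere stabilizer Klhl41 fell by log2 fold changes of -1.42 and -1.56. Nrap, which takes part in myofibril assembly, went the other way with 36.3, 69.3 and 55.7 CPM in Asb2fl/fl, against 14.7, 12.9 and 14.6 CPM in Asb2fl/+ (1.85, SE 0.22, adjusted p = 0.000473). In the second pair Tnni3k, Sdpr, Scn4b and Nrap were at -0.97, -1.03, -1.053 and 2.91 (adjusted p = 0.0326, 0.00847, 0.00668 and 0.00136). Red cell genes outside the marker list fell as well, among them the red cell pyruvate kinase gene Pklr (-2.89, SE 0.35, adjusted p = 0.000569) and the membrane anchor Ank1 (-1.79, SE 0.23, adjusted p = 0.000892).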
